A study of Mus musculus with 43 samples.

Results

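The collagen genes of the mouse were followed through an RNA and chromatin study of the Prmt1-deleted juvenile testis. Members were the protein-coding genes of the GENCODE vM21 annotation with a symbol made of Col, a type number, a and a chain number. This rule found 44 genes among 21951 protein-coding genes, and all 44 were present in the expression tables. The members comprised 11 fibrillar chains, 6 collagen IV chains, 6 collagen VI chains, 9 FACIT chains (fibril-associated collagens with interrupted triple helices), 2 multiplexins, 3 short-chain network collagens, 4 transmembrane collagens and 3 others.

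Whole testes at postnatal day 7 (P7) gave 3 WT and 3 Prmt1-dKO bulk RNA-seq libraries, and spermatogonia sorted at P7 gave 2 WT and 2 Prmt1-dKO Smart-seq2 libraries. Prmt1 encodes the main enzyme placing asymmetric dimethylarginine on H4R3 and other substrates. The Prmt1-dKO animals carried floxed Prmt1 alleles and Ddx4-CreERT2, a knock-in in which the germ-line promoter of Ddx4 drives EGFP and a tamoxifen-dependent Cre, and both genotypes were injected with tamoxifen on 3 days. The sorted controls are labelled WT, whereas the methods give the sorted controls as heterozygous mice with the same knock-in, 1 floxed and 1 intact copy of Prmt1. CUT&Tag peak lists, 33 in all, covered 7 histone marks in C57BL/6J WT mice at P7 and P14, and H4R3me2s also in Prmt1-dKO at P7. By the methods these cells were a germ-cell-enriched suspension, from tubules freed of interstitium by collagenase and strained to remove Sertoli cells, so the marks and the whole-testis RNA come from different mixtures of cells. The P14 samples are titled spermatogonia but carry the cell type spermatocyte, so the ages may also differ in cell stage. The Cre acts in germ cells, whereas collagen in the testis is made mainly by somatic cells. The bulk libraries are labelled as spermatogonia although the protocol used total testis RNA, and markers of Sertoli, Leydig, myoid, fibroblast, endothelial and macrophage cells were all detected in them.

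Collagens are triple-helical proteins built from 3 polypeptide chains, which may be identical or may be products of different genes. Fibrillar collagens (types I, III, V and XI among them) form the tensile fibres of interstitial tissue. Collagen IV forms the sheet of the basement membrane, collagen VI forms beaded filaments beside it, and the multiplexins XV and XVIII carry glycosaminoglycan side chains at basement membrane zones. In the testis a basement membrane surrounds each seminiferous tubule, with Sertoli cells and spermatogonia on its inner face and peritubular myoid cells and fibroblasts outside.

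Total counts were 12396345 to 16598249 in the bulk and 15610392 to 18547103 in the Smart-seq2 libraries. Prmt1 stood at 237, 219 and 247 CPM (counts scaled to a common library total) in WT testis and at 146, 199 and 158 CPM in Prmt1-dKO testis, 1.4-fold lower (log2 fold change -0.49, SE 0.13, FDR 0.0334, edgeR). In sorted cells it stood at 216 and 149 CPM in WT and at 112 and 86.5 CPM in Prmt1-dKO (log2 fold change -0.88, SE 0.26, FDR 0.133, edgeR). The floxed segment is exons 4 and 5, so a whole-gene count checks the labels only in part. The 2 sorted WT libraries were unlike each other (Pearson r of log2 CPM across genes 0.788), whereas the 2 sorted Prmt1-dKO libraries gave 0.953 and the bulk pairs 0.965 to 0.99.

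Promoters of 4 members are shown because the results below turn on them: the type I and type III chains that were higher in Prmt1-dKO testis and the pair of multiplexins that fell. Sequences are from RefSeq on GRCm38.p6, the mm10 build of the files, given 5′ to 3′ on the strand of the gene and without exonic bases. Capitals mark a GC box (GGGCGG or its reverse CCGCCC), the reverse of a CCAAT box (ATTGG) or a TATA motif (TATAAA).
Col1a2, plus strand, chr6:4505370-4505492: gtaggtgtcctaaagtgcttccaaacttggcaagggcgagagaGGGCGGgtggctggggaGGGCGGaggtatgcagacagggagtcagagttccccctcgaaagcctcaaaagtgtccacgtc
Col3a1, plus strand, chr1:45311288-45311537: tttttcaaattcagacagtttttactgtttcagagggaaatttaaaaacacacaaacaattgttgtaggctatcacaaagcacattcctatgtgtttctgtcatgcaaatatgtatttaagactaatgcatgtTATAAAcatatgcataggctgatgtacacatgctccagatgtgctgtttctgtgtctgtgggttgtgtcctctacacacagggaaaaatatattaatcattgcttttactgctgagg
Col15a1, plus strand, chr4:47207762-47208011: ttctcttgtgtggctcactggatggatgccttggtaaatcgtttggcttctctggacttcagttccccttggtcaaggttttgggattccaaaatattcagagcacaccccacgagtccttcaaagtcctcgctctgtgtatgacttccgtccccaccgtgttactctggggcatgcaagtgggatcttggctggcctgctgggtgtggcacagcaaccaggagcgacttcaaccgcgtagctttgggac
Col18a1, minus strand, chr10:77166549-77166780: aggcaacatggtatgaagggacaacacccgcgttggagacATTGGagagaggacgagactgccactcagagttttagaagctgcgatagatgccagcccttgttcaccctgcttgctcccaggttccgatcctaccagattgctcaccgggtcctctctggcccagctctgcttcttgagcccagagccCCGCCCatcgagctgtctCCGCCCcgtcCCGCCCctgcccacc

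The Col18a1 stretch held 3 GC boxes, 61, 43 and 33 bases upstream of the start, with 60.8% GC and 11 CpG. The Col1a2 stretch held 2 GC boxes, 205 and 188 bases upstream, with 59.3% GC. It covers only bases 248 to 126 upstream, since 127 exonic bases were left out. The whole promoter window of Col1a2 also held a CCAAT box on 1 of the strands. The Col3a1 stretch was AT-rich, with 35.2% GC and 0 CpG, and its only motif was TATAAA 117 bases upstream. The Col15a1 stretch held none of the searched letters, with 53.6% GC and 8 CpG. Of the 44 members, 35 had an entry in the RefSeq promoter table of 27025 genes (250 bases before to 50 after a start). A GC box lay in 22 of them on either strand (62.9%), against 38.2% of all genes in the table. CCAAT or ATTGG lay in 13 (37.1%, against 41.1%), and TATAAA or TTTATA in 5 (14.3%, against 15.7%). The median GC content was 60% for member promoters and 53.3% for all.

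Whole testis was rich in collagen mRNA, and the collagen repertoire shifted between genotypes while its sum did not separate them. Member genes took 1.43%, 1.49% and 1.55% of all counts in WT and 1.75%, 1.74% and 1.45% in Prmt1-dKO. Types I and III made up 57.8%, 59.5% and 59.0% of the summed collagen TPM (a level corrected for transcript length, on a common total in every library) in WT, and 70.1%, 68.9% and 72.1% in Prmt1-dKO. Col4a1 and Col4a2 together made up 9.99%, 9.37% and 8.67% in WT and 4.91%, 4.24% and 4.62% in Prmt1-dKO. Neither share overlapped between the genotypes. In WT testis, by TPM, Col3a1 led with 1130 ± 52.6 (SD, n = 3), followed by Col1a2 at 902 ± 34.5 and Col1a1 at 866 ± 33.4, a difference of about their SD. Next came Col6a1 at 355 ± 7.39, Col6a2 at 288 ± 6.82 and Col4a1 at 272 ± 21.5, the latter pair again within its spread, then Col18a1 at 190 ± 8.62, Col4a2 at 188 ± 3.04, Col5a1 at 111 ± 3.56 and Col6a3 at 96.6 ± 8.35. The lowest were Col19a1 at 0.0233 TPM and Col10a1, the collagen of hypertrophic cartilage, at 0.01 TPM.

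Prmt1-dKO testis was compared with WT to ask which members differ between genotypes. Of 43 members tested, 5 were called higher, Col9a2, Col24a1, Col19a1, Col20a1 and Col28a1, where 5.32% of all 16554 genes tested were, a call being an FDR below 0.05 with at least a 2-fold change (edgeR). Another 3 were called lower, Col18a1, Col15a1 and Col6a5, where 1.78% of all genes were. At an FDR below 0.05 with no fold threshold, 12 members were higher (10.6% of all genes) and 10 were lower (8.51% of all genes). For 14 members the lowest Prmt1-dKO value exceeded the highest WT value (20.9% of all genes), and for another 14 the groups were apart in the other direction (19.9% of all genes). Of these 22, 12 stayed below 0.05 in each of the 6 fits that left out 1 library. The other 10, Col4a3, Col5a3, Col6a6, Col7a1, Col11a1, Col11a2, Col12a1, Col20a1, Col23a1 and Col28a1, did not, with highest FDRs of 0.0617 to 0.145 (edgeR). The median log2 fold change was 0.04 over the members and 0.023 over all genes tested. Col10a1, with expected counts of 0, 0 and 1 in WT and 1, 1 and 6 in Prmt1-dKO, was not tested. The labels do not say that replicates are separate animals, so p-values measure the spread between these libraries, and in whole testis fewer cells of a type and less RNA per cell cannot be told apart.

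**Figure D1:**
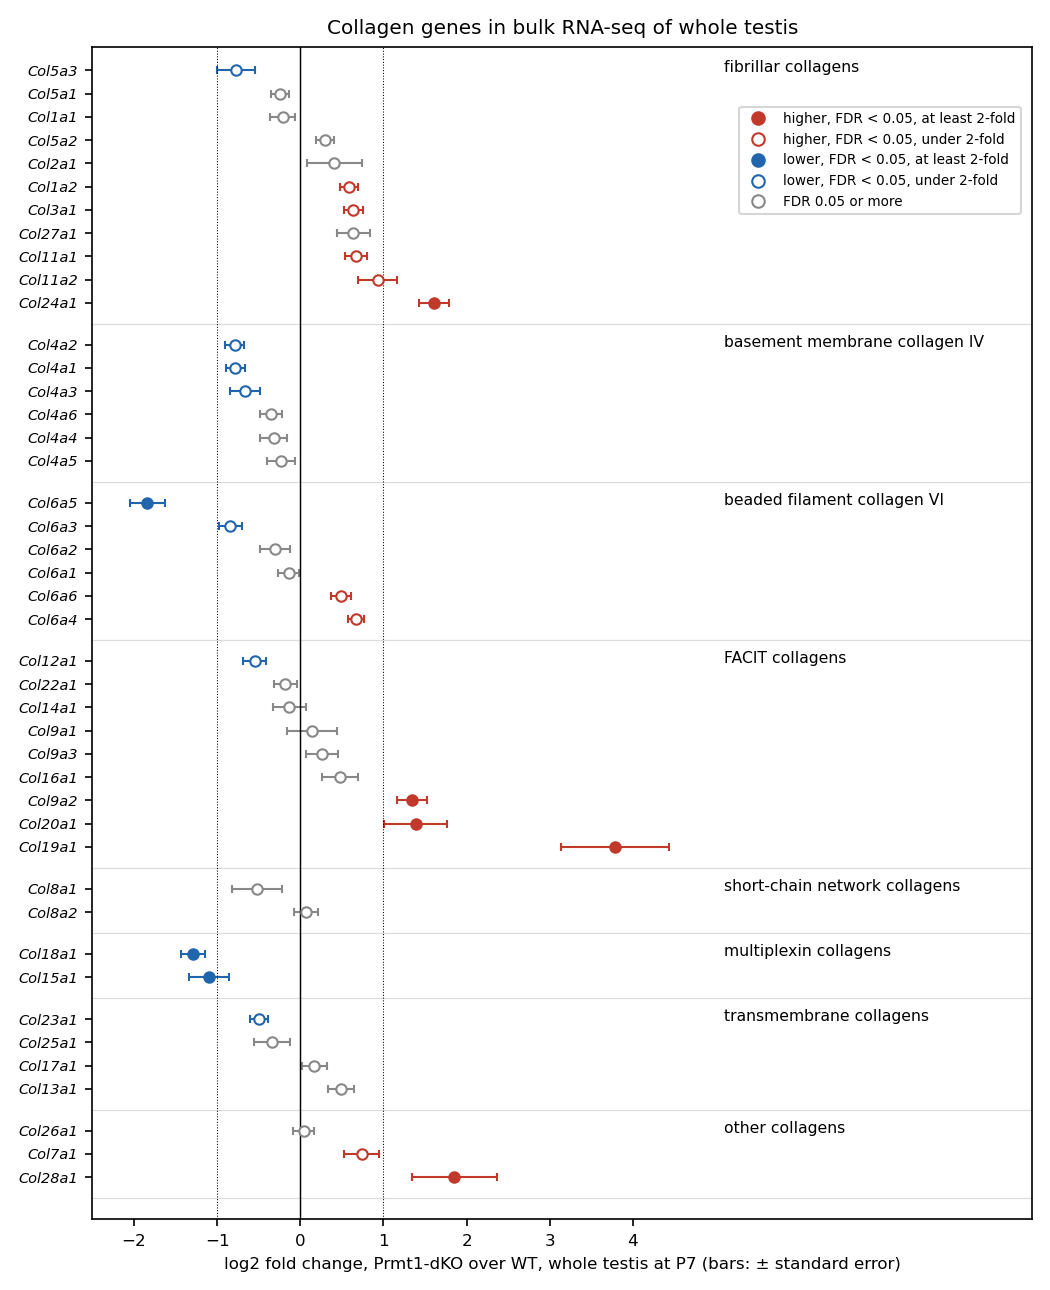
The horizontal axis gives the log2 fold change of Prmt1-dKO over WT whole testis at P7 for each tested collagen gene, grouped by collagen class, with bars of 1 standard error and colour for the edgeR call. The 6 collagen IV chains and both multiplexins lie below 0, and the fibrillar chains have a median of 0.59.

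Both multiplexins fell. Col18a1 (ENSMUSG00000001435.15, GRCm38 chr10:77052178-77166548), whose C-terminal fragment is endostatin, stood at 609, 560 and 595 CPM in WT and at 251, 282 and 186 CPM in Prmt1-dKO. The groups were far apart, with every Prmt1-dKO library under 300 CPM, and the level fell 2.45-fold (log2 fold change -1.29, SE 0.15, FDR 0.00161, edgeR). Col15a1 (ENSMUSG00000028339.17, chr4:47208161-47313167), a collagen of capillary and muscle basement membrane zones, stood at 141, 148 and 151 CPM in WT and at 76.0, 88.6 and 40.8 CPM in Prmt1-dKO. The WT libraries were tight, whereas the Prmt1-dKO libraries were spread and the lowest of them was replicate 3. The level fell 2.14-fold (log2 fold change -1.10, SE 0.24, FDR 0.0138, edgeR), and without that library the change was -0.83 (FDR 0.00654), short of 2-fold.

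All 6 chains of collagen IV, the network former of the basement membrane, had a negative log2 fold change, with a median of -0.51. An FDR below 0.05 was reached by 3 of them (8.51% of all genes were lower at that FDR) and a 2-fold change by none. Col4a1 (ENSMUSG00000031502.11, chr8:11198423-11312826) stood at 1070, 1090 and 1010 CPM in WT and at 678, 596 and 571 CPM in Prmt1-dKO, 1.72-fold lower (log2 fold change -0.78, SE 0.11, FDR 0.00257, edgeR). Col4a2 (ENSMUSG00000031503.13, chr8:11312805-11449287), the partner chain in the same trimer, stood at 739, 739 and 763 CPM in WT and at 457, 456 and 380 CPM in Prmt1-dKO, 1.73-fold lower (log2 fold change -0.79, SE 0.11, FDR 0.0026, edgeR). The pair lie head to head on opposite strands with their outermost starts 21 bp apart, and their changes were of one size. Col4a3 (chr1:82586921-82722059) was at 128, 142 and 134 CPM in WT and at 106, 61.2 and 86.3 CPM in Prmt1-dKO (log2 fold change -0.67, SE 0.18, FDR 0.0302, edgeR), with an FDR of up to 0.114 when 1 library was left out. Its head-to-head neighbour Col4a4, 72 bp away, was at 304, 332 and 307 CPM in WT and at 296, 186 and 274 CPM in Prmt1-dKO (log2 fold change -0.32, SE 0.16, FDR 0.209, edgeR). The X-linked pair Col4a5 (log2 fold change -0.23, FDR 0.366, edgeR) and Col4a6 (log2 fold change -0.35, FDR 0.0845, edgeR), with starts 1309 bp apart, did not pass the test.

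The fibrillar chains leaned upwards, with a median log2 fold change of 0.59 over 11 tested. At an FDR below 0.05, 5 were higher (10.6% of all genes) and 1 lower (8.51% of all genes). By the call with a fold threshold, 1 was higher (5.32% of all genes). Col3a1 (ENSMUSG00000026043.18, chr1:45311538-45349706), the single chain of type III collagen, stood at 2570, 2750 and 2960 CPM in WT and at 4360, 4550 and 3970 CPM in Prmt1-dKO (log2 fold change 0.64, SE 0.11, FDR 0.00556, edgeR). Col1a2 (ENSMUSG00000029661.16, chr6:4504814-4541544), the second chain of type I collagen, stood at 2750, 2920 and 3060 CPM in WT and at 4670, 4350 and 4130 CPM in Prmt1-dKO (log2 fold change 0.59, SE 0.11, FDR 0.00646, edgeR). Col1a1 (ENSMUSG00000001506.10, chr11:94936224-94953042), which supplies the other 2 chains of the same trimer, did not move with it. It stood at 2930, 3110 and 3310 CPM in WT and at 2850, 3090 and 2140 CPM in Prmt1-dKO, with overlapping groups (log2 fold change -0.21, SE 0.15, FDR 0.34, edgeR). Among the type V chains, which set fibril diameter, Col5a1 (-0.24, FDR 0.142) and Col5a2 (0.30, FDR 0.0863) did not pass the edgeR test on the log2 scale, and Col5a3, at 42.9, 41.7 and 44.2 CPM in WT and 22.5, 36.0 and 17.6 CPM in Prmt1-dKO, was lower (log2 fold change -0.77, SE 0.23, FDR 0.0445, edgeR). The type XI chains, best known from cartilage, were higher: Col11a1 at 21.0, 20.1 and 21.6 CPM in WT and 38.7, 29.4 and 32 CPM in Prmt1-dKO (log2 fold change 0.67, FDR 0.00965, edgeR), and Col11a2 at 3.21, 3.92 and 4.59 CPM against 8.47, 8.20 and 5.84 CPM (log2 fold change 0.93, FDR 0.0236, edgeR).

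**Figure D2:**
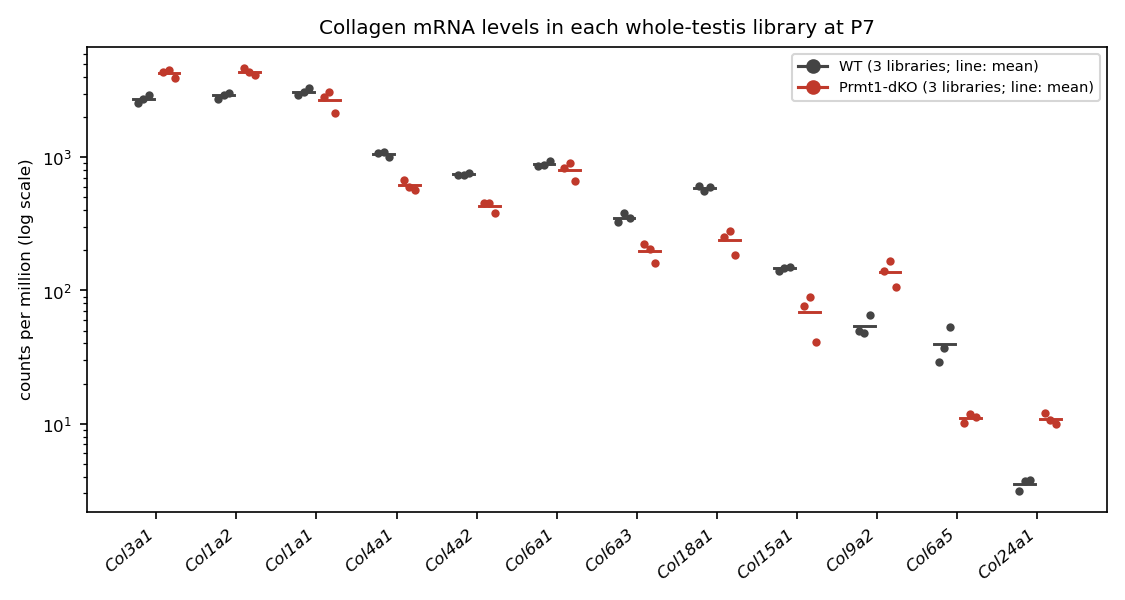
Each point is 1 whole-testis library at P7, with CPM on a log axis and a line at each mean, for 12 collagen genes in WT and Prmt1-dKO. The 3 Prmt1-dKO points of Col18a1 (186 to 282 CPM) lie under the 3 WT points (560 to 609 CPM), whereas those of Col3a1 (3970 to 4550 CPM) lie above WT (2570 to 2960 CPM).

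The called fibrillar chain was Col24a1 (ENSMUSG00000028197.4, chr3:145292472-145552011), a minor fibrillar collagen of developing bone. It stood at 3.14, 3.74 and 3.77 CPM in WT and at 12, 10.7 and 10 CPM in Prmt1-dKO. The groups were well apart at a low level, 3.06-fold higher in Prmt1-dKO (log2 fold change 1.61, SE 0.18, FDR 0.00134, edgeR).

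Of 9 FACIT chains 3 were called higher (5.32% of all genes) and none lower (1.78% of all genes) by edgeR. Col9a2 (ENSMUSG00000028626.5, chr4:121039385-121055322), a chain of the collagen IX that decorates cartilage fibrils, was the one of them at more than a few CPM, with 49.4, 47.9 and 65.9 CPM in WT and 140, 167 and 107 CPM in Prmt1-dKO. It rose 2.54-fold (log2 fold change 1.34, SE 0.18, FDR 0.00257, edgeR), while its partner chains Col9a1 (0.14, FDR 0.783) and Col9a3 (0.26, FDR 0.362) did not pass the edgeR test on the log2 scale. Col19a1 (ENSMUSG00000026141.13, chr1:24261890-24587472), a collagen of basement membrane zones, had expected counts of 0, 2 and 1 in WT and of 11, 14 and 16 in Prmt1-dKO. The summed count rates differed 15.8-fold (95% interval 5.05 to 79.9, counting error only; FDR 0.00539, edgeR). Col20a1 (ENSMUSG00000016356.18, chr2:180986535-181018363) had 25, 25 and 12 counts in WT and 37, 60 and 47 in Prmt1-dKO (log2 fold change 1.39, SE 0.38, FDR 0.0327, edgeR). Col12a1, at 39.0, 48.4 and 40.6 CPM in WT and 33.3, 27.6 and 26.5 CPM in Prmt1-dKO, was lower (log2 fold change -0.55, SE 0.14, FDR 0.0234, edgeR).

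Outside the FACIT class, Col28a1 (ENSMUSG00000068794.7, chr6:7997808-8192617), a collagen with von Willebrand factor A domains, had 3, 6 and 11 counts in WT and 24, 11 and 31 in Prmt1-dKO (log2 fold change 1.85, SE 0.51, FDR 0.0354, edgeR). Its highest WT and lowest Prmt1-dKO counts were equal before scaling. The Col20a1 and Col28a1 calls rest on such low counts, and each was lost in 4 of the 6 fits that left out 1 library. Col7a1, the anchoring fibril collagen of skin, was at 14.1, 12.8 and 13.5 CPM in WT and 21.8, 29.9 and 16.2 CPM in Prmt1-dKO (log2 fold change 0.74, SE 0.21, FDR 0.0379, edgeR). Among the transmembrane collagens, Col23a1 was at 35.4, 32.4 and 34.1 CPM in WT and 25.9, 22.9 and 23.1 CPM in Prmt1-dKO (log2 fold change -0.50, SE 0.11, FDR 0.016, edgeR).

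Collagen VI split within the class. The 3 chains of its common trimer gave different results: Col6a1 (log2 fold change -0.14, FDR 0.47, edgeR) and Col6a2 (-0.30, FDR 0.269) did not pass, and Col6a3, at 329, 381 and 349 CPM in WT and at 225, 205 and 162 CPM in Prmt1-dKO, was lower (log2 fold change -0.84, SE 0.14, FDR 0.00449, edgeR). The 3 alternative chains Col6a4, Col6a5 and Col6a6 are neighbours on the minus strand of chromosome 9. Col6a5 (ENSMUSG00000091345.9, chr9:105856078-105960643), the middle one, stood at 29.2, 37.3 and 53.0 CPM in WT and at 10.1, 11.9 and 11.3 CPM in Prmt1-dKO. It fell 3.59-fold (log2 fold change -1.84, SE 0.21, FDR 0.00153, edgeR). Both flanking genes were higher. Col6a4 was at 74.2, 76.5 and 70.0 CPM in WT and 125, 116 and 110 CPM in Prmt1-dKO (log2 fold change 0.67, SE 0.10, FDR 0.00356, edgeR), and Col6a6 at 44.5, 51.1 and 45.8 CPM against 73.9, 62.6 and 62.4 CPM (log2 fold change 0.49, SE 0.12, FDR 0.0201, edgeR).

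Ratios between chains of one collagen type, and of Col3a1 to Col1a1, were taken within each library, since they do not depend on its scaling. The TPM ratio of Col1a1 to Col1a2 was 0.959, 0.952 and 0.97 in WT and 0.529, 0.628 and 0.448 in Prmt1-dKO. It was thus almost fixed in WT (0.96 ± 0.00906, SD, n = 3) and lower in every Prmt1-dKO library (0.535 ± 0.0903). Col3a1 to Col1a1 was 1.30, 1.33 and 1.29 in WT and 2.29, 2.39 and 2.95 in Prmt1-dKO. Col5a1 to Col5a2 was 2.16, 1.90 and 1.94 in WT and 1.32, 1.60 and 1.11 in Prmt1-dKO. Both ratios set the groups apart. Col4a1 to Col4a2 did not separate them, with 1.52, 1.48 and 1.34 in WT and 1.55, 1.32 and 1.52 in Prmt1-dKO. Of 8 ratios compared, 6 did not overlap between genotypes, the others of these being Col4a3 to Col4a4 (0.502 to 0.521 in WT, 0.375 to 0.425 in Prmt1-dKO), Col4a5 to Col4a4 (0.666 to 0.687 against 0.723 to 0.879) and Col6a3 to Col6a1 (0.251 to 0.286 against 0.222 to 0.225). Each of the 6 had a two-sided exact permutation p of 0.1, the smallest that 3 against 3 allows, or 0.133 after Benjamini-Hochberg adjustment over the 8, so this exact test cannot reach 0.05 here. By counts in place of TPM, 5 of the 6 were apart and Col4a5 to Col4a4 overlapped (0.328 to 0.34 in WT, 0.338 to 0.376 in Prmt1-dKO). The ratio of Col4a1 to Col4a2 gave p = 0.7 and that of Col6a1 to Col6a2 p = 0.4 by the same exact test.

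**Figure D3:**
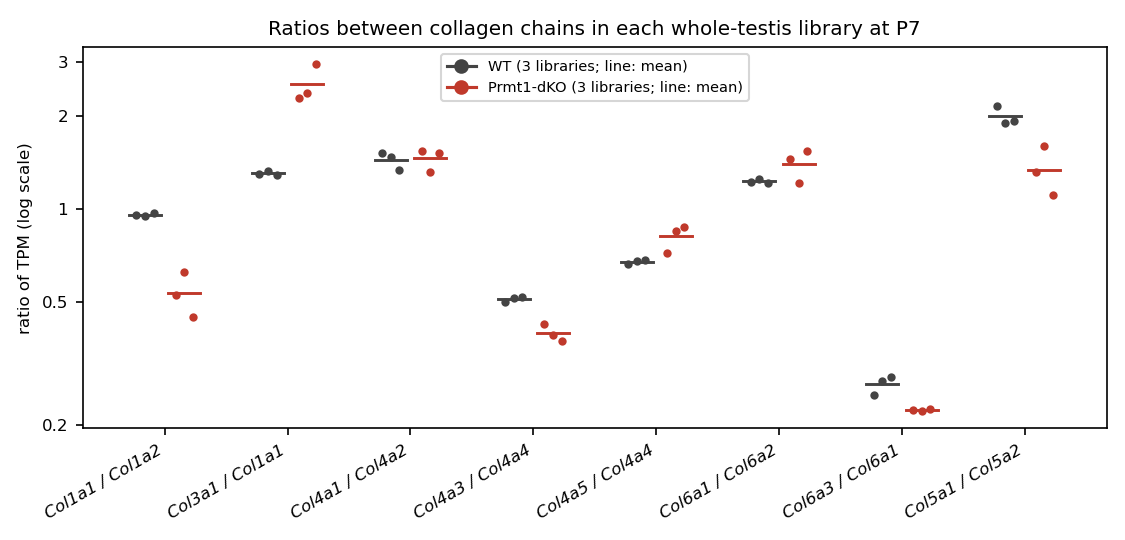
Each point is the ratio of 2 collagen chains by TPM (log axis) in 1 whole-testis library at P7. Col1a1 over Col1a2 lies between 0.952 and 0.97 in WT and between 0.448 and 0.628 in Prmt1-dKO, and Col4a1 over Col4a2 overlaps.

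Genes that act on collagens were counted in the same edgeR fit. Among 13 tested genes for collagen processing and cross-linking 3 were called lower (1.78% of all genes) and none higher (5.32% of all genes). Over the 13 the median log2 fold change was -0.44. Loxl2, a lysyl oxidase of collagen cross-links, was at 72.5, 74.6 and 68.6 CPM in WT and 37.8, 31.5 and 29.2 CPM in Prmt1-dKO (log2 fold change -1.13, SE 0.12, FDR 0.00133, edgeR). Adamts14, a procollagen N-proteinase, was at 23.3, 19.6 and 20.4 CPM against 8.76, 10.9 and 8.44 CPM (log2 fold change -1.17, SE 0.15, FDR 0.0022, edgeR), and Loxl4, another lysyl oxidase, was at 2.21, 1.84 and 1.38 CPM against 0.511, 0.319 and 0.571 CPM (log2 fold change -1.92, SE 0.39, FDR 0.011, edgeR). Of 11 tested proteases and inhibitors only Timp4, a metalloproteinase inhibitor, was called, higher at 0.73, 2.95 and 1.52 CPM against 0.401, 0.306 and 0.44 CPM in WT (log2 fold change 2.15, FDR 0.0278, edgeR). None was called among 19 modifying enzymes and chaperones (median log2 fold change -0.24), 9 receptors (-0.20), 12 collagen-binding partners (-0.11) or 12 laminins and other basement membrane partners (-0.40), of which 5 were lower at an FDR below 0.05 and none higher.

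Some somatic cell type markers moved in the same libraries, whereas germ cell sums overlapped. Germ cell markers summed to 1630 to 1870 CPM in WT and 1690 to 1770 CPM in Prmt1-dKO. None of 13 tested was called, 1 was lower at an FDR below 0.05, and the median log2 fold change was 0.05. All 10 peritubular myoid markers had negative log2 fold changes, 4 of them called lower, and their summed level was 1730 to 1880 CPM in WT and 778 to 1360 CPM in Prmt1-dKO. All 14 Sertoli markers were negative, 2 called, with sums of 7320 to 8200 CPM against 6100 to 6390 CPM. Leydig markers summed to 767 to 894 CPM against 498 to 551 CPM, with 4 of 8 tested called lower. Fibroblast markers summed to 1370 to 1390 CPM in WT and 1590 to 1950 CPM in Prmt1-dKO, with none called, 3 of 10 higher and 1 lower at an FDR below 0.05, and a median log2 fold change of 0.04 (5 positive, 5 negative). Endothelial sums were 218 to 227 CPM against 229 to 269 CPM with none of 8 called, and macrophage sums 127 to 152 CPM against 149 to 198 CPM with 1 of 10 called each way. No marker in these lists was at 0 in all WT bulk libraries. The lower Col4a1, Col4a2 and multiplexin levels thus came with lower myoid and Sertoli sums. The higher Col1a2 and Col3a1 levels came with higher fibroblast sums but a median fibroblast marker change near 0. The part of cell composition in these differences was not tested.

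Sorted spermatogonia held little collagen RNA. Member counts made up 0.0186% and 0.0176% of the library in the 2 WT and 0.0247% and 0.0259% in the 2 Prmt1-dKO libraries. By TPM, which corrects for length, the member sums overlapped, with 69.19 and 70.96 in WT and 66.52 and 71.27 in Prmt1-dKO. Summed CPM of all members in WT sorted cells came to 1.21% of that in WT whole testis, 82.4-fold less, without a test between assays that differ in chemistry. Germ cell markers stood at 187% of their bulk level by the same measure, Sertoli markers at 9.75%, fibroblast markers at 8.5%, endothelial markers at 5.4%, myoid markers at 4.97%, Leydig markers at 2.91% and macrophage markers at 2.18%. Retention was uneven among members. In WT 21 of 44 were at 0 in both sorted libraries, Col1a2 and Col6a1 among them. Col1a1 kept 0.35%, Col3a1 0.398%, Col4a2 0.456% and Col4a1 1.32%, but Col18a1 kept 8.42% and the transmembrane Col13a1 55.8%, from an uneven 43 and 276 counts. Col22a1, a FACIT collagen of tissue junctions, stood at 207% of its bulk level, 32.8 against 15.9 CPM unscaled, and Col2a1, the cartilage fibril collagen, at 159%, which rests on 117 counts in one WT library and 0 in the other.

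By expected counts, uncorrected for length, Col18a1 led in sorted WT cells with 682 and 1076, against 655 and 715 in Prmt1-dKO, where Col1a1 led. By TPM Col22a1 led in sorted WT cells, at 19.5 ± 3.01 (SD, n = 2) against 11.9 ± 3.77 for Col18a1. Col22a1 had 527 and 663 in WT and 366 and 293 in Prmt1-dKO, and Col5a1 470 and 112 against 219 and 213. Replicates of WT disagreed on many members: Col3a1 had 400 and 0 counts, Col6a2 6 and 476, Col27a1 1 and 185, and Col4a2 123 and 1. A count of 0 in one WT library with at least 10 in the other was seen for 9 members, and the like in Prmt1-dKO for 1, Col15a1 with 15 and 0. Members with a count numbered 22 and 12 in the WT and 36 and 34 in the Prmt1-dKO libraries. Over all genes the numbers with a count were also lower in WT, 17069 and 15572 against 21350 and 20159.

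**Figure D4:**
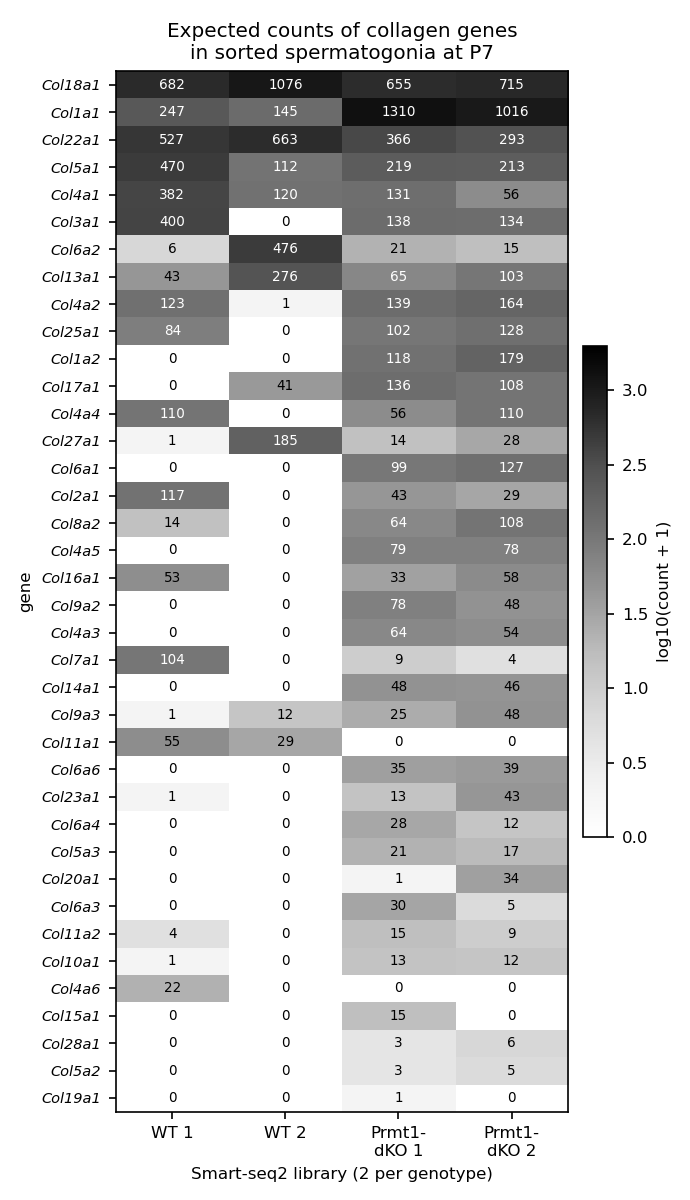
Colour gives log10 of the expected count plus 1 for each collagen gene (vertical axis) in the 4 sorted Smart-seq2 libraries (horizontal axis). Both Prmt1-dKO columns are filled alike (36 and 34 members with a count), whereas the WT columns hold 22 and 12 and differ from each other.

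The comparison of Prmt1-dKO with WT sorted cells gave no edgeR call among 30 members tested, higher or lower, and none among all 16443 genes either (0% each way). An unadjusted p below 0.05 was reached by 13 members and by 23.8% of all genes tested. DESeq2 called 8 members higher (7.33% of all genes), Col1a1, Col1a2, Col4a3, Col4a5, Col6a1, Col6a6, Col9a2 and Col14a1, and none lower (3.93% of all genes). For 18 members the lower Prmt1-dKO value exceeded the higher WT value (36.3% of all genes), and for 2 the reverse held (20.3% of all genes).

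Col1a1 carried the most counts of these, 247 and 145 in WT and 1310 and 1016 in Prmt1-dKO, or 12.8 and 7.59 CPM against 84.3 and 67.3 CPM. The groups were far apart (log2 fold change 2.89, SE 0.41), with an FDR of 0.0774 by edgeR and an adjusted p of 3.17e-08 by DESeq2. Col1a2 had 0 and 0 counts in WT and 118 and 179 in Prmt1-dKO, at least 110-fold higher against a floor of 3 counts over the 2 WT libraries. Col6a1 had 0 and 0 against 99 and 127 (at least 84.0-fold), Col4a5 0 and 0 against 79 and 78 (at least 58.4-fold), and Col4a3 0 and 0 against 64 and 54 (at least 43.9-fold). In all, 9 of the 44 members were at 0 in both WT and at 10 or more in both Prmt1-dKO libraries. They were 30% of the members tested, against 1350 of all genes tested (8.21%). Such genes passed the count filter through Prmt1-dKO alone and so had to differ. The reverse held for Col11a1 alone, with 55 and 29 counts in WT and 0 and 0 in Prmt1-dKO (at least 25.1-fold lower).

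Among members with a mean of at least 50 counts over the sorted libraries, the 3 with the largest negative values were Col6a2, Col27a1 and Col4a1. Col27a1, a fibrillar collagen of cartilage, with 14 and 28 counts in Prmt1-dKO, had a log2 fold change of -1.82 (edgeR FDR 0.72), which became 4.56 without WT replicate 2. Col6a2, with 21 and 15 counts in Prmt1-dKO, had -3.42 (edgeR FDR 0.423), which became 1.91 without that library. Col4a1, with 382 and 120 counts in WT and 131 and 56 in Prmt1-dKO, had -1.10 (edgeR FDR 0.633), which became -0.03 without WT replicate 1 and -1.68 without WT replicate 2 (edgeR FDR 0.00472).

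Some somatic marker lists differed between the sorted genotypes. Macrophage markers summed to 0 to 5.98 CPM in WT, with 9 of 10 at 0 in both libraries, and to 63.0 to 72.6 CPM in Prmt1-dKO, with 1 at 0. Sertoli markers summed to 752 to 755 CPM in WT and 1090 to 1230 CPM in Prmt1-dKO. Myoid sums were 59.8 to 118 CPM against 53.2 to 59.2 CPM, with 4 of 10 markers at 0 in both WT libraries and 1 in both Prmt1-dKO libraries. Fibroblast sums were 69.3 and 165 CPM in WT and lay between these in Prmt1-dKO, with 4 of 10 and 1 of 10 at 0. Endothelial sums were 10.7 to 13.4 CPM in WT and 8.65 to 9.9 CPM in Prmt1-dKO, with 6 of 8 markers at 0 in both WT and 2 in both Prmt1-dKO libraries, and Leydig sums 22.3 to 26.3 CPM against 26.3 to 29.0 CPM, with 6 of 9 and 4 of 9 at 0. Macrophage and Sertoli sums were thus higher in Prmt1-dKO, as the collagen sums were by CPM (176 to 186 against 247 to 259) but not by TPM, whereas myoid and endothelial sums were lower and fibroblast sums overlapped, although each list had fewer markers at 0 in Prmt1-dKO. Their part in the collagen differences was not tested.

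The genotype difference itself differed between the assays for 16 of 44 members (19% of 19608 genes tested; interaction FDR below 0.05 in an edgeR fit over all 10 libraries). It was more positive in sorted cells for 15 of them and more negative for Col11a1. Col1a2, Col4a3, Col4a5, Col5a2, Col5a3, Col6a1, Col6a3, Col6a4, Col6a6, Col9a2 and Col14a1 had 0 counts in both sorted WT libraries. Col11a1 had 0 in both sorted Prmt1-dKO libraries. Their sorted differences follow from these zeros, which leaving out 1 library does not remove, so such fits add no separate support for them. With each of the 10 libraries left out in turn, 13 of the 16 kept an interaction FDR below 0.05. The others were Col5a2, lost without sorted Prmt1-dKO replicate 2, Col8a2, lost in 8 fits, and Col18a1, lost in 6 (interaction 1.35 on the log2 scale, FDR 0.0154, highest FDR 0.0722, edgeR). This fit shares one estimate of the spread between assays whose biological coefficients of variation were 0.155 in bulk and 0.767 in Smart-seq2.

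In the chromatin of the germ-cell-enriched suspensions, collagen promoters carried H3K4me3, the mark of active or poised promoters, about as often as other genes at P7, and H3K27ac, an acetylation of active promoters and enhancers, rarely. A gene was counted as marked when at least 2 replicate lists had a peak summit within 3000 bp of any of its annotated starts. That meant 2 of 3 lists for H4R3me2a at both ages and for H4R3me2s at P14, and 2 of 2 for the rest, so counts are best read against all genes under the same mark and not across marks. At P7 H3K4me3 marked 29 of 44 members (65.9%, against 60.7% of all protein-coding genes), and H3K27ac marked 1, the FACIT gene Col20a1 (2.27%, against 31% of all). At P14 H3K4me3 marked 22 (50%, against 63.1%) and H3K27ac 5 (11.4%, against 48.9%), namely Col4a1, Col4a2, Col8a2, Col20a1 and Col26a1. The H3K4me3 mark was found at both ages for 20 members and at P7 only for 9, including Col3a1, Col6a1, Col6a3, Col12a1 and Col24a1.

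Each arginine mark was counted in the same way. At P7 H4R3me2a, the asymmetric mark placed by Prmt1, marked 10 members (22.7%, against 15.3% of all genes), H3R2me2a 13 (29.5%, against 11%), H3R8me2a 3 (6.82%, against 9.71%) and H4R3me1 7 (15.9%, against 10.8%). At P14 the corresponding members numbered 22 (50%, against 49%), 26 (59.1%, against 51.3%), 2 (4.55%, against 33%) and 15 (34.1%, against 29.9%). H4R3me2s, the symmetric mark, was at 6 members at P7 (13.6%, against 17.8%) and at 11 at P14 (25.0%, against 34.2%). The counts depended on the lists and on how many had to agree. With 1 list left out, a peak was needed in every remaining list. This loosened the rule for marks with 2 lists and tightened it for those with 3. Shares of all genes were not computed for this setting. P7 counts then came to 4 to 5 members for H4R3me2a, 7 to 11 for H3R8me2a and 11 to 16 for H4R3me1. They came to 6 to 7 for H3K27ac and 10 to 14 for H4R3me2s. At P14 they came to 6 to 9 for H4R3me2a, 10 to 12 for H3R8me2a, 12 to 18 for H3K27ac and 1 to 5 for H4R3me2s. Members had a median of 4 annotated starts and all genes of 3, which gives members a slightly wider total window. When 2 lists had to place a summit at the same start, P7 counts fell. They were 4 for H4R3me2a (12.6% of all genes), 7 for H3R2me2a (8.94%) and 4 for H4R3me1 (8.74%).

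**Figure D5:**
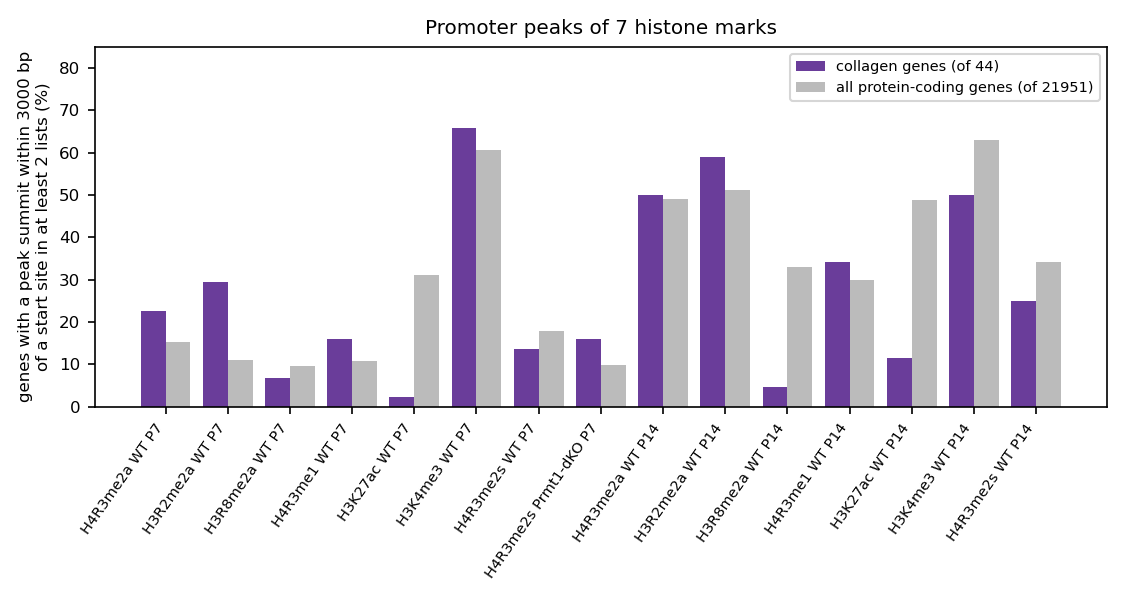
Bars give the percent of genes with a promoter peak in at least 2 lists for each mark, age and genotype, for the 44 collagen genes and for all 21951 protein-coding genes. Collagen bars are far shorter for H3K27ac (2.27% against 31% at P7) and of like height for H3K4me3 at P7 (65.9% against 60.7%).

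The lists were not called alike: per their entry names H3K4me3 peaks were called at q 0.05 and the peaks of the other 6 marks at p 0.005, so weaker peaks were kept for the latter. All 72 member peaks of H3K4me3 at P7 had a q-value of 0.01 or less, with a median -log10 q of 6.82 and a highest of 27.5, at Col18a1 (chr10:77165278-77166560). The groups of the other 6 marks had medians of 0.0844 to 1.47. At that limit 29 members at P7 and 22 at P14 were counted for H3K4me3, 6 for H3R2me2a, 2 for H3K27ac and 1 for H4R3me1 at P14, and 0 for all others.

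Summed over all starts of a gene, Col15a1 had the most marks at P7, 5 of 7 (H4R3me2a, H3R2me2a, H4R3me1, H3K4me3 and H4R3me2s), and Col18a1 had 4. These did not fall on a single promoter. Where 2 lists had to place a summit at the same start, the outermost start of Col15a1 (chr4, 47208161) held H3K4me3 alone and an internal start (47303722) held H3R2me2a and H4R3me1, and Col18a1 held only H3K4me3, at its outermost start. By that count 3 members reached 3 marks at 1 start at P7, the head-to-head Col4a3 and Col4a4 and the transmembrane Col25a1, and none had more. At P14 the most was 5 marks, at Col6a2 and Col25a1. Col4a1 and Col4a2 shared one H3K4me3 peak across their joint start region (chr8:11311871-11313898 in P7 replicate 1), so they are not independent. Col1a1, Col1a2 and Col3a1 each had H3K4me3 as their only mark at P7, and at P14 Col3a1 had none. The Col9a1 and Col10a1 promoters had no mark at either age. Among the 35 members with a RefSeq promoter entry, the 23 with H3K4me3 at P7 had a median of 14 CpG per window (0 to 37) and the 12 without it a median of 8 (0 to 32), ranges that overlap almost fully.

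H4R3me2s could be compared between genotypes at P7. It marked 6 members in WT, Col5a3, Col9a3, Col11a2, Col15a1, Col25a1 and Col26a1, and 7 in Prmt1-dKO (15.9%, against 9.82% of all genes), Col4a1, Col4a2, Col6a3, Col13a1, Col17a1, Col18a1 and Col22a1, with 0 in common. Over all protein-coding genes 997 were marked in both genotypes, 25.5% of those marked in WT and 46.2% of those in Prmt1-dKO. Of these, Col15a1 and Col5a3, marked in WT, and Col4a1, Col4a2, Col6a3 and Col18a1, marked in Prmt1-dKO, were lower in Prmt1-dKO testis at an FDR below 0.05 (edgeR), and Col11a2, marked in WT, was higher. These peaks were weak, with a highest -log10 q of 3.98 in WT and 1.29 in Prmt1-dKO. When both lists had to hold a summit at the same start site, 4 members in WT (15.5% of all genes) and 0 in Prmt1-dKO (7.55% of all genes) were left. With lists cut to equal length 5 and 1 were left. With 2 lists a genotype, no test of the exchange was made.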

How the data were processed

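RNA was measured in 6 whole-testis and 4 sorted libraries, and histone marks in 33 CUT&Tag samples. The authors trimmed reads with fastp 0.23.2, quantified RNA with RSEM on mm10 (the sources used here give no annotation version) and called peaks per sample with MACS2 2.1.0, per the labels and methods. The deposited tables hold expected counts with TPM and FPKM; the deposited peak lists hold fold enrichment, a ratio, and −log10 p and q. Expected counts were rounded and tested with edgeR 4.0.16 in R 4.3.3 (TMM, quasi-likelihood, filterByExpr with a minimum count of 10, Benjamini-Hochberg over all genes), with DESeq2 1.42.0 as an alternative. CPM values are scaled by TMM unless given as unscaled. TPM gave levels and chain ratios, and FPKM was not used. Scripts were tested on simulated data. Gene names and starts came from GENCODE vM21. Printed intervals cover counting error only.

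Genes named were Prmt1, called members, the 10 highest by TPM in WT testis, up to 3 members a direction in sorted cells with a mean of at least 50 counts, collagen IV chains, members with 5 or more marks, members whose H4R3me2s state differed, and up to 3 called genes per pathway list. Members and lists were chosen with earlier results of these data known. Other members are named from class counts. Alternatives were another tool, filters, fold thresholds, windows, q limits, a replicate block and each library left out. The P14 H4R3me2s lists carry the number 17 in their entry names, and the label, day 14, was followed. Replicate numbers did not pair samples.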

Additional observations from a re-analysis of the deposited data

Results flagged for a closer look

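For 16 members the difference between Prmt1-dKO and WT was not the same in sorted spermatogonia as in whole testis, by an interaction term in an edgeR fit over all 10 libraries. The FDR was 0.000109 for Col6a1, 0.000126 for Col1a2, 0.000132 for Col4a5, 0.000155 for Col6a6, 0.000169 for Col4a3, 0.000265 for Col14a1, 0.000594 for Col5a3, 0.000814 for Col9a2 and 0.00166 for Col6a4. These 9 members had 0 counts in both sorted WT libraries and 10 or more in both Prmt1-dKO libraries. Col6a3 and Col5a2, given below, also had 0 counts in both sorted WT libraries, with 30 and 5 and with 3 and 5 in Prmt1-dKO. Col23a1 had 1 and 0 in sorted WT. The FDR was 0.000427 for Col1a1, which had counts in every sorted library, and 0.000439 for Col11a1, which had counts in sorted WT libraries only. It was 0.00231 for Col23a1, 0.0071 for Col6a3, 0.00726 for Col5a2, 0.0154 for Col18a1 and 0.0324 for Col8a2. The number of such members was 14 to 31 as single libraries were left out, the highest without sorted WT replicate 1.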

How the results depend on the processing

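In bulk, the 5 members called higher became 2 with a mean TPM of at least 1, 12 with no fold threshold and 3 to 5 with single libraries left out. The 3 called lower became 10 with no fold threshold and 2 to 4 with single libraries left out. Of 228 values recomputed for 21 named bulk results, 218 kept direction and call, 10 lost the call and 0 reversed.

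With the replicate number as a block, bulk gave 4 higher and 3 lower (Col28a1 FDR 0.0568, edgeR), and Smart-seq2 gave 0 each way. Same-numbered libraries did not deviate together (correlations across genes 0.0825, -0.221 and -0.119 in bulk, 0.0177 in Smart-seq2).

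In sorted cells, members called higher numbered 8 by DESeq2 and 0 to 22 with single libraries left out (22 without WT replicate 1, 16 without WT replicate 2); those called lower numbered 0 to 5 (4 and 5 without these). A lone WT library is then assumed to vary like the Prmt1-dKO pair. In these fits calls over all genes rose too, higher and lower, where the full fit gave none. The member counts are therefore not read as a response particular to collagens. The interaction count was 14 to 31. Col27a1 changed sign under the block (0.55) and ranged from -2.79 to 4.56 with single libraries left out, and Col6a2 from -4.38 to 1.91, both positive without WT replicate 2. The sorted share of bulk was 1.42% by TPM.

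Promoter counts of H3K4me3 stayed within 1.5 times under each setting, and those of every other mark moved under at least 1. Within 1000 bp, members at P7 were 4 for H4R3me2a, 6 for H3R2me2a, 1 for H3R8me2a, 3 for H4R3me1, 0 for H3K27ac, and 2 in WT and 0 in Prmt1-dKO for H4R3me2s, and at P14 were 11 for H4R3me2a, 1 for H3R8me2a and 6 for H4R3me2s. With a q-value of at most 0.01 every arginine mark and H3K27ac gave 0 at P7, and at P14 counts were 6 for H3R2me2a, 2 for H3K27ac, 1 for H4R3me1 and 0 for H4R3me2a, H3R8me2a and H4R3me2s. With both summits at the same start site, an alternative chosen after seeing the data, P7 gave 4 for H4R3me2a, 7 for H3R2me2a, 1 for H3R8me2a, 4 for H4R3me1, 0 for H3K27ac and 0 for H4R3me2s in Prmt1-dKO, and P14 gave 1 for H3R8me2a and 7 for H4R3me2s. Lists of equal length gave 1 for H4R3me2s in Prmt1-dKO. With single lists left out, P7 counts were 4 to 5 for H4R3me2a, 18 to 20 for H3R2me2a, 7 to 11 for H3R8me2a, 11 to 16 for H4R3me1, 6 to 7 for H3K27ac, and 10 to 14 in WT and 11 to 12 in Prmt1-dKO for H4R3me2s. At P14 they were 6 to 9 for H4R3me2a, 10 to 12 for H3R8me2a, 12 to 18 for H3K27ac and 1 to 5 for H4R3me2s. Where 2 lists become 1, a peak in that list suffices, and where 3 become 2, both must hold one. The cause of other moves was not tested.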

Other observations

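Across the 43 members tested in bulk, the log2 fold change had a Spearman correlation of -0.27 with transcript length and 0.06 with GC content, and across 16538 genes of -0.25 and 0.01. These are across genes, which are not independent replicates. Collagen transcripts were long, with a median of 6048 bases against 3228 for all genes tested. Member H3K4me3 peaks were narrower than those of all genes in each list, with a median width of 837 and 776 bp against 1130 and 1055 bp at P7, and of 670 and 670 bp against 1036 and 1081 bp at P14.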
